A study of Mus musculus with 4 samples.

Results

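The genes described here are the 4 adult globin genes of the mouse, Hba-a1, Hba-a2, Hbb-bs and Hbb-bt, which were matched by Ensembl identifier in RNA-seq gene counts of hematopoietic stem cells (HSCs). They are 4 of 42367 genes listed in at least 1 of the 4 libraries and had at least 1 count in every library. The genes were chosen by their measured counts and KO/WT ratios. For Hba-a1, Hba-a2, Hbb-bs and the summed count, the ratios moved in opposite directions in the 2 comparisons of the series. The ratio of Hbb-bt was below 1 in both. Every level and ratio of these genes below is therefore a description and carries no test.

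The study asked how loss of Gfi1b, a transcriptional repressor of blood cells, changes gene expression in HSCs. The mice were of strain C57Bl6. Gfi1b KO mice carried Rosa-CreERT2, which expresses a tamoxifen-inducible recombinase in most tissues, with both Gfi1b alleles floxed (Gfi1b fl/fl). The methods give the WT mice as Rosa-Cre Gfi1b wt/fl and treated with tamoxifen as well, whereas the deposited design describes the controls as floxed mice without Cre. Bone marrow of tibiae, femora and humeri was pooled from several mice of a genotype and depleted of lineage-positive cells, and the ages of the mice are not given in the sources used here. HSCs were sorted as Lin- cKit+ Sca1+ Cd48- CD150+ cells, and a second population was sorted as HSCs CD41low CD9low. The lineage antibodies listed for the sort recognise B, T, NK and myeloid cells and include none against a red cell antigen. A commercial lineage depletion kit was used first. Its antibodies are not listed in the methods, so whether it targeted red cells cannot be read from them. Each genotype and population is represented by 1 library, so no difference below has a replicate check, and intervals in parentheses are exact 95% binomial intervals that cover counting error only.

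The HSC libraries held 50781007 (WT) and 41690708 (KO) reads counted on genes, and the CD41low/CD9low libraries held 12732079 and 19123185. The stem cell receptor gene Kit stood between 989 and 1262 CPM (counts scaled to a library total of 1000000) in all 4, and 12 HSC marker genes together gave 2981 to 3610 CPM. Genes of 2 sort markers varied more. In HSC WT, HSC KO, CD41low/CD9low WT and CD41low/CD9low KO, Slamf1 (CD150) was at 82.7, 106, 30.9 and 61.1 CPM. Ly6a (Sca1) was at 23.5, 16.6, 48.9 and 51.0 CPM. The count of the targeted gene, Gfi1b, was 9256 and 49910 in the HSC libraries labelled WT and KO, and 611 and 9741 in the CD41low/CD9low libraries. The whole-gene count was thus higher in both libraries labelled KO, and because the gene count does not separate the deleted exons it checks no label. The sample titles name the gene as Gfi1, the paralog, whereas the genotype labels and the paper name Gfi1b. WT and KO below mean the libraries with those labels, and every direction rests on them.

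Adult hemoglobin is a tetramer of alpha and beta globin chains, each of which holds a heme group. The alpha chains are made from the neighbouring genes Hba-a1 and Hba-a2, and the beta chains, in C57BL/6 mice, from Hbb-bs and Hbb-bt. These genes are transcribed at very high levels in erythroblasts, the nucleated red cell precursors, under a distant enhancer cluster at each locus and with the factors Gata1, Tal1 and Klf1. Reticulocytes, the young red cells without a nucleus, keep globin mRNA. Stem cells are not known for hemoglobin synthesis, and globin mRNA is a common marker of red cell material in marrow preparations.

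Hba-a1 (ENSMUSG00000069919) lies on the plus strand at chr11:32283511-32284465 of GRCm38 (mm10) and Hba-a2 (ENSMUSG00000069917) on the same strand at chr11:32296489-32297298. Hbb-bs (ENSMUSG00000052305) lies on the minus strand at chr7:103826534-103828096 and Hbb-bt (ENSMUSG00000073940) on the minus strand at chr7:103812524-103813996. Within each pair the coding sequences are nearly identical, which bears on how reads were divided between the copies. The 429 coding bases of Hba-a1 and Hba-a2 differed at 1 position, C381T, and the 444 coding bases of Hbb-bs and Hbb-bt at 1 position, C417T, giving 99.77% identity in each pair. Positions are counted from 1 at the first coding base, with the base of the first-named gene before the position. The stretches of exon 3 around these positions are shown because they are the only coding sequence that tells the copies apart, with the differing base in capitals (GENCODE M21 transcripts, GRCm38).
Hba-a1, chr11:32284298-32284358, plus strand: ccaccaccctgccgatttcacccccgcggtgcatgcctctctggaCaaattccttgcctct
Hba-a2, chr11:32297115-32297175, plus strand: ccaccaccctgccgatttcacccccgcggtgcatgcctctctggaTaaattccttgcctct
Hbb-bs, chr7:103826677-103826737, minus strand: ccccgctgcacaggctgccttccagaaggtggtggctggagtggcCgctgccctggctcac
Hbb-bt, chr7:103812668-103812728, minus strand: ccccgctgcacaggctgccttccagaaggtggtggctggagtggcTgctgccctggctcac

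Little of the alpha mRNAs can be assigned to 1 copy. A window was called unique if no transcript of another gene held it, nor the promoter sequence around that gene's start. A window that matched only such promoter sequence was thus not counted as unique. Of all 50-base windows along the mRNA, 50 of 650 (7.692%) in Hba-a1 and 66 of 505 (13.07%) in Hba-a2 were unique. The shares were 198 of 579 (34.2%) in Hbb-bs and 273 of 654 (41.74%) in Hbb-bt. In Hba-a1, 49 of the 50 unique windows lay inside the coding sequence, and 1 reached the 3′UTR. In Hba-a2, 49 lay inside it and 17 reached the 3′UTR. The beta genes differ mainly outside the coding sequence, where 39 windows of Hbb-bs began in the 5′UTR and 131 reached the 3′UTR, and 113 and 132 did so in Hbb-bt. With 100-base windows the unique share was 16.67% in Hba-a1, 25.49% in Hba-a2, 37.43% in Hbb-bs and 45.2% in Hbb-bt. Reads from the rest of each mRNA also match its copy, another transcript or promoter sequence of another gene. The split of counts within a pair is therefore uncertain, and reads shared by both copies may be missing from the sums. Alignments that HTSeq set aside as not unique came to 111.78, 121.58, 104.59 and 96.21 per 100 counted reads in HSC WT, HSC KO, CD41low/CD9low WT and CD41low/CD9low KO. The files do not say which genes those alignments came from.

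**Figure D1:**
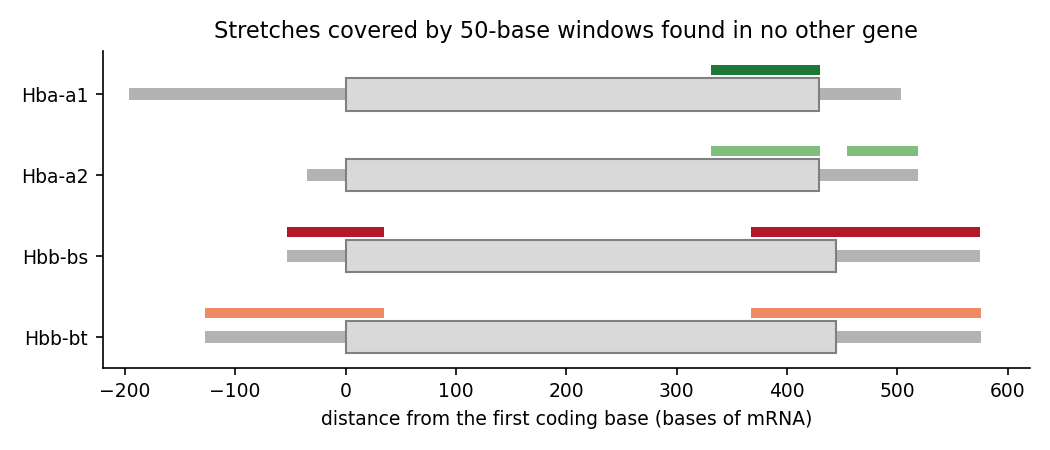
Stretches of each adult globin mRNA covered by 50-base windows that no other gene's transcript or promoter sequence holds. They are plotted against position in bases from the first coding base. Grey boxes are the coding sequence, thin grey bars the untranslated regions and coloured bars the unique stretches, which lie around coding position 381 in both alpha genes and in part of the 3′UTR in Hba-a2, whereas both beta genes have them from the 5′UTR and into the 3′UTR.

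The promoters are shown because the pairs differ in how far the upstream sequence is shared, and because the known red cell motifs are found there. The 250 bases before the start of Hba-a1 and of Hba-a2 shared an unbroken run of 247 bases, while the longest run shared by Hbb-bs and Hbb-bt was 14 bases. The sequences are from RefSeq (GRCm38.p6), limited to bases outside annotated exons. Capitals mark matches to the letters of the CCAAT box, the CACCC box, the TATAA box and the sequence GATAAG, each on either strand and at any position. The Hbb-bt stretch runs from 250 to 74 bases before the RefSeq start, so the bases nearest the start are not shown. Of the 2 TATAA matches in the 250 bases before Hbb-bt, only the one far from the start is shown. It lies on the opposite strand and was not tested as a promoter element. All 4 genes matched an entry.
Hba-a2, chr11:32296242-32296488, plus strand: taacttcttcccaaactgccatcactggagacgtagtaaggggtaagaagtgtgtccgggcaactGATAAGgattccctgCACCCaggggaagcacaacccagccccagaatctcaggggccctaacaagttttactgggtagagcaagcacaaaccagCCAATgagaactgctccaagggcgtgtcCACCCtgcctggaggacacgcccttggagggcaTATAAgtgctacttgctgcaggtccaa
Hbb-bs, chr7:103827929-103828011, minus strand: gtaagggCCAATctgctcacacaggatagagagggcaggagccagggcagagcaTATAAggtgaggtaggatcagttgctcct
Hbb-bt, chr7:103813997-103814173, minus strand: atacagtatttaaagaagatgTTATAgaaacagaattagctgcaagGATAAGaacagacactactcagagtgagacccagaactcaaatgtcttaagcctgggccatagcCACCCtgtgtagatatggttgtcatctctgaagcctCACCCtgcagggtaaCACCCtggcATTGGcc

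Each of the 4 motifs occurred at least once in the 250 bases before the start of all 4 genes. Across 32851 promoters of that length, CCAAT was held by 33.8%, CACCC by 52%, TATAA by 22.8% and GATAAG, the Gata1 binding sequence, by 6.55%. AATC, the core that Gfi1b recognises, was also in all 4 and in 69% of promoters. A match of letters is a description of the sequence and not a bound site, and the motifs were chosen after the sequences had been read.

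Of the alpha genes, Hba-a1 had 43 counts in HSC WT, 112 in HSC KO, 154 in CD41low/CD9low WT and 5 in CD41low/CD9low KO. In CPM these were 0.847 (0.613 to 1.14), 2.69 (2.21 to 3.23), 12.1 (10.3 to 14.2) and 0.261 (0.0849 to 0.610). Hba-a2 had 4, 74, 30 and 7 counts in the same order, and 0.0788 (0.0215 to 0.202), 1.77 (1.39 to 2.23), 2.36 (1.59 to 3.36) and 0.366 (0.147 to 0.754) CPM. The CD41low/CD9low WT library had the highest level of both alpha genes, although for Hba-a2 its interval overlapped that of HSC KO. Hba-a1 was lowest in CD41low/CD9low KO and Hba-a2 in HSC WT, where the intervals of the CD41low/CD9low KO and HSC WT libraries overlapped for Hba-a2.

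Hbb-bs gave the highest globin count of the series, with 106 counts in HSC WT, 660 in HSC KO, 1009 in CD41low/CD9low WT and 18 in CD41low/CD9low KO. These were 2.09 (1.71 to 2.52), 15.8 (14.6 to 17.1), 79.2 (74.4 to 84.3) and 0.941 (0.558 to 1.49) CPM, and no interval overlapped another. Hbb-bt had 285, 174, 351 and 85 counts, or 5.61 (4.98 to 6.30), 4.17 (3.58 to 4.84), 27.6 (24.8 to 30.6) and 4.44 (3.55 to 5.50) CPM. Hbb-bt was thus highest in CD41low/CD9low WT, and the interval of CD41low/CD9low KO overlapped those of both HSC libraries.

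**Figure D2:**
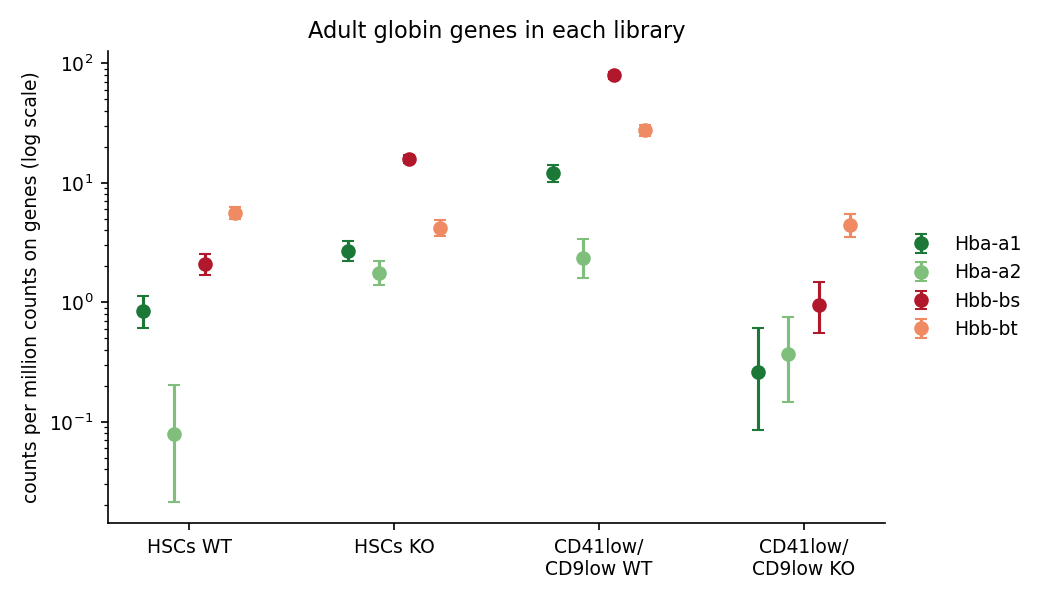
Levels of the 4 adult globin genes in each library, in CPM on a log axis, with bars for exact 95% binomial intervals (counting error only). The CD41low/CD9low WT library is the highest for every gene, and Hbb-bs runs from 0.941 to 79.2 CPM over the libraries.

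Per kilobase of exon, the order of the genes also differed between libraries. In CD41low/CD9low WT the level was 103 CPM per kb for Hbb-bs, 39.2 for Hbb-bt, 14.9 for Hba-a1 and 3.53 for Hba-a2. HSC KO had the same order, at 20.6, 5.94, 3.31 and 2.66 CPM per kb. In HSC WT and CD41low/CD9low KO, Hbb-bt came first with 7.98 and 6.32 CPM per kb, ahead of Hbb-bs with 2.72 and 1.23. Compared with other genes, the level per kb of Hbb-bs exceeded that of 97.9% of the detected genes in CD41low/CD9low WT, 86.0% in HSC KO, 43.3% in HSC WT and 26.4% in CD41low/CD9low KO.

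Together the 4 genes had 438 counts in HSC WT, 1020 in HSC KO, 1544 in CD41low/CD9low WT and 115 in CD41low/CD9low KO. Their summed level was 8.63 (7.84 to 9.47), 24.5 (23.0 to 26.0), 121 (115 to 127) and 6.01 (4.96 to 7.22) CPM. The WT libraries of the 2 populations thus lay further apart than the KO and WT libraries of the HSCs. The populations also differed in sequencing depth and in the genes listed (38293 and 41214), which cannot be told apart from the population here. In bulk RNA, fewer cells of a type and less RNA per cell cannot be told apart.

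To compare KO with WT, each pair of libraries was scaled by its own median-of-ratios size factors. A gene was counted as higher above a ratio of 1.5 and as lower below 0.6, if at least 1 of the libraries had 10 counts. In HSCs, 3 of the 4 globins were higher in KO, against a background of 14.1% of 15910 genes, and 0 were lower, against 10.3%. The ratio was 22.8 for Hba-a2 (8.55 to 86.0), 7.68 for Hbb-bs (6.25 to 9.53) and 3.21 for Hba-a1 (2.24 to 4.68). Hbb-bt, at 0.754 (0.620 to 0.913), was between the cutoffs and on the other side of 1. The summed ratio was 2.87 (2.57 to 3.22), or 4.88 (3.53 to 6.88) for the alpha pair and 2.63 (2.33 to 2.98) for the beta pair.

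In CD41low/CD9low HSCs all 4 globins were lower in KO, against a background of 12.0% of 14844 genes, and 0 were higher, against 13.5%. The ratio was 0.0119 (0.00702 to 0.0189) for Hbb-bs, which was 84.1-fold lower. Hba-a1 was 46.2-fold lower, at a ratio of 0.0216 (0.00693 to 0.0516). Hba-a2 and Hbb-bt were 6.43-fold and 6.19-fold lower, at ratios of 0.156 (0.0577 to 0.361) and 0.161 (0.126 to 0.205). The sum was 20.1-fold lower, at 0.0497 (0.0407 to 0.0600), and the pairs were close to each other at 0.0435 (0.0221 to 0.0778) for alpha and 0.0505 (0.0409 to 0.0617) for beta. Since the genes were chosen for these contrasts, nothing is read from their counts against the background.

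Hba-a1, Hba-a2 and Hbb-bs thus went in opposite directions in the 2 populations, up with the KO label in HSCs and down with it in the CD41low/CD9low pair. Of 14144 genes with enough counts in both comparisons, 318 (2.25%) had that pattern and 226 (1.60%) the reverse. Another 469 (3.32%) were higher in KO in both populations and 346 (2.45%) lower in both. The difference between the populations was not tested, because each ratio rests on 2 libraries.

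**Figure D3:**
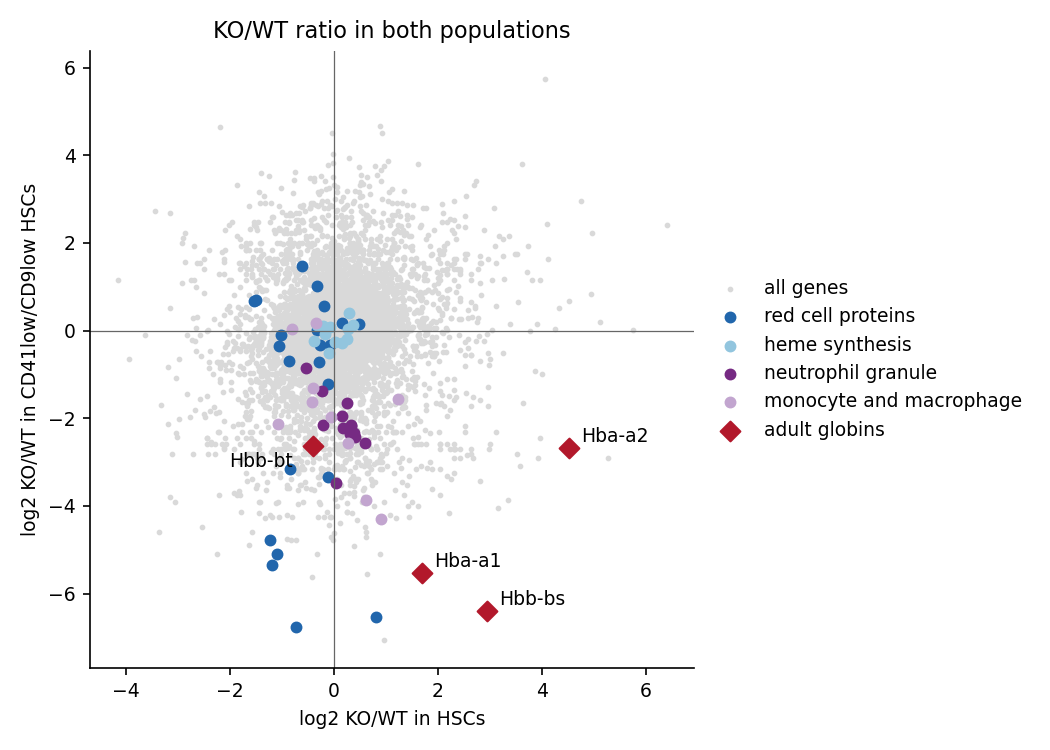
KO/WT ratios on a log2 scale in HSCs (horizontal axis) and in CD41low/CD9low HSCs (vertical axis), for all genes measured in both (grey), the 4 adult globins (red diamonds) and the red cell, heme synthesis, neutrophil and monocyte genes (coloured points), with counts under 3 set to 3. Hba-a1, Hba-a2 and Hbb-bs lie at lower right, and Hbb-bt lies below 0 on both axes.

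The makeup of the globin counts changed along with their sum. Hbb-bs made up 27.1% of the beta counts in HSC WT (22.8 to 31.8), 79.1% in HSC KO (76.2 to 81.8), 74.2% in CD41low/CD9low WT (71.8 to 76.5) and 17.5% in CD41low/CD9low KO (10.7 to 26.2). The 2 libraries with more globin had Hbb-bs as the main beta gene and the 2 with less had Hbb-bt. Hba-a1 made up 91.5% of the alpha counts in HSC WT (79.6 to 97.6), 60.2% in HSC KO (52.8 to 67.3), 83.7% in CD41low/CD9low WT (77.6 to 88.7) and 41.7% in CD41low/CD9low KO (15.2 to 72.3). The alpha split did not follow the globin sum in the same way, since Hba-a1 had its highest share in HSC WT. The alpha genes were 10.7%, 18.2%, 11.9% and 10.4% of all adult globin counts in the 4 libraries in the same order, although equal amounts of alpha and beta chain enter hemoglobin.

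The uniqueness of the mRNAs differs between the genes, so the counts were also set against the number of unique 50-base windows. Per 100 such windows, HSC WT had 86 counts of Hba-a1, 6.061 of Hba-a2, 53.54 of Hbb-bs and 104.4 of Hbb-bt. CD41low/CD9low WT had 308, 45.45, 509.6 and 128.6. On this scale the alpha genes came to 0.4881 of the beta genes in HSC WT, 0.9055 in HSC KO, 0.5493 in CD41low/CD9low WT and 0.473 in CD41low/CD9low KO. The window numbers are the same for every library, so this scaling raised the alpha to beta ratio by the same factor in each. That the alpha and beta genes lay closer together than in plain counts follows from that factor and is not a separate result of each library. The order of Hbb-bs and Hbb-bt within each library was kept, with Hbb-bs ahead in HSC KO and CD41low/CD9low WT.

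**Figure D4:**
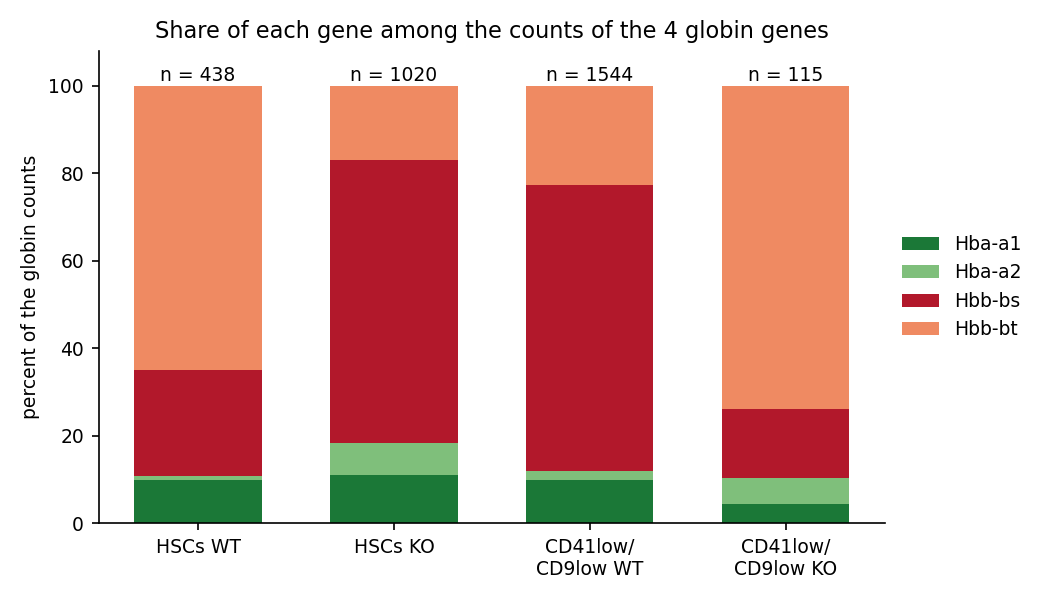
Share of each adult globin gene in the summed counts of the 4 genes, in percent, for each library, with n the summed count. Hbb-bt makes up 65.1% in HSC WT and 73.9% in CD41low/CD9low KO, against 17.1% in HSC KO and 22.7% in CD41low/CD9low WT.

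The embryonic and minor globins were near 0. Hbb-y, the embryonic beta-like globin, had 0, 2, 10 and 0 counts in HSC WT, HSC KO, CD41low/CD9low WT and CD41low/CD9low KO. Its ratio in the CD41low/CD9low pair was 0 (0 to 0.297), or 5.0-fold lower when the 0 was set at the floor of 3 counts. Hbb-bh1 had 4 counts in HSC WT and 0 in the other libraries, and Hbq1b had 2 in HSC KO alone. The other 5 measured genes of this group, among them Hba-x, the embryonic alpha-like globin, were at 0 in all 4 libraries. A count of 0 allows up to 0.0591, 0.0720, 0.236 and 0.157 CPM in the 4 libraries. Among globins used outside red cells, Mb (myoglobin) was at 0 throughout, Cygb (cytoglobin) had 15, 19, 0 and 4 counts and Ngb (neuroglobin) had 16, 3, 0 and 0. In HSCs the ratio of Cygb was 1.56 (0.753 to 3.31), an interval that includes 1. That of Ngb was 0.231 (0.0432 to 0.808), with the KO count at the floor of 3 counts. Adgb had 11, 11, 0 and 9 counts and a ratio of 1.23 (0.485 to 3.14) in HSCs.

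Heme, which every globin chain binds, is made by a pathway that all cells use. Over all genes tested, 14.1% were higher and 10.3% lower in KO in HSCs, and 13.5% and 12.0% in the CD41low/CD9low pair. These shares are the background for each list below. Of 13 genes of heme synthesis and its mitochondrial transport, 1 was higher in KO in HSCs and 0 were lower, which is near those shares. The 1 gene was Alas2, the red cell form of the first and rate-limiting enzyme, with 8 counts in WT and 51 in KO and a ratio of 7.87 (3.71 to 19.2). Alas2 had 8 and 7 counts in the CD41low/CD9low libraries, too few for a ratio. The other 12 were between the cutoffs in both populations. The lowest of them in HSCs was Tmem14c, which is needed for porphyrin transport, at 0.763. In the CD41low/CD9low pair they ran from 0.704 for Cpox to 1.32 for Uros, both pathway enzymes. The summed level of the 13 genes stayed between 522 and 556 CPM. The opposite directions of the globin sum were thus not seen among these 12 genes, and could not be checked for Alas2. Only 2.25% of 14144 genes had the globin pattern, so its absence from a list this short says little.

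Of 22 genes for red cell membrane, enzyme and surface proteins, 1 was higher and 9 were lower in KO in HSCs, against 14.1% and 10.3% of all genes. Their median log2 ratio was −0.47, while the median over all genes was near 0. In CD41low/CD9low HSCs 4 were higher and 8 lower, against 13.5% and 12.0%, with a median of −0.34. Slc4a1, the band 3 anion exchanger of the red cell membrane, was the 1 gene of this group past the cutoffs in the direction of the globin sum in both populations. It had 58, 82, 246 and 4 counts. The HSC ratio was 1.745 (1.23 to 2.49), and the ratio of the CD41low/CD9low pair was 0.0108 (0.00293 to 0.0281). The other genes lower in CD41low/CD9low KO were Car1, Rhd, Ermap, Kel, Sptb, Ank1 and Trim10. Sptb fell from 218 to 3 counts there, at a ratio of 0.00917 (0.00188 to 0.0272). The ratio was 0.0988 (0.0251 to 0.283) for Trim10 and 0.428 (0.331 to 0.551) for Ank1. In HSCs Sptb, Trim10 and Ank1 were between the cutoffs.

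Other red cell genes were lower in KO in HSCs, where the globin sum was higher. Car1, a carbonic anhydrase of red cells, had 1005, 347, 55 and 0 counts, with a ratio of 0.426 (0.376 to 0.482) in HSCs. In the CD41low/CD9low pair its ratio was 0 (0 to 0.0462), or 27.5-fold lower with the 0 set at the floor of 3 counts. Rhd, a Rh blood group gene, had 127, 45, 82 and 0 counts, with ratios of 0.437 (0.304 to 0.619) and 0 (0 to 0.0307). With the same floor it was 41.0-fold lower in CD41low/CD9low KO. Rhag, its partner in the membrane, had 761, 212, 38 and 91 counts and went the other way round from the globins, with ratios of 0.344 (0.294 to 0.401) and 1.60 (1.08 to 2.40). Tmod1, tropomodulin of the membrane skeleton, did so as well, with 855, 245, 20 and 49 counts and ratios of 0.354 (0.306 to 0.408) and 1.63 (0.953 to 2.90). In all, 4 of the 22 genes, Car1, Ermap, Rhd and Kel, were at 0 in CD41low/CD9low KO. None of the 22 was at 0 in any of the other libraries.

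The red cell genes with the highest counts did not follow the globins. Car2, the carbonic anhydrase that stem cells also express, had 46826, 18623, 9700 and 13475 counts and ratios of 0.491 (0.483 to 0.499) and 0.926 (0.902 to 0.951). Epb41 (protein 4.1) and Prdx2 (peroxiredoxin) were between the cutoffs in both populations. Hemgn (hemogen) had 3060, 1195, 479 and 563 counts and ratios of 0.482 (0.450 to 0.515) and 0.784 (0.692 to 0.887). Epor, the erythropoietin receptor of early erythroid progenitors, had 1066, 566, 49 and 205 counts and ratios of 0.655 (0.591 to 0.726) and 2.79 (2.03 to 3.89). The summed level of the 22 genes, in which Car2 and Epb41 weigh most, was 2001, 1481, 1573 and 1475 CPM, so its highest library was HSC WT, not CD41low/CD9low WT.

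Among 14 transcription factors that act on the globin loci, 1 was higher and 1 lower in KO in HSCs, against 14.1% and 10.3% of all genes. In CD41low/CD9low HSCs 3 were higher and 1 lower, against 13.5% and 12.0%. Counts this small are near those shares. Klf1, the activator of adult beta globin, had 598, 276, 55 and 36 counts and was lower in both, at 0.570 (0.492 to 0.658) and 0.436 (0.278 to 0.676). Gata2, the stem and progenitor GATA factor, was higher in both, at 1.98 (1.93 to 2.02) and 1.95 (1.86 to 2.04). Gata1, the erythroid and megakaryocytic GATA factor, had 3197, 2028, 100 and 408 counts, with ratios of 0.783 (0.740 to 0.828) and 2.72 (2.18 to 3.42). Bcl11a, a repressor of embryonic globins, was between the cutoffs at 1.42 (1.38 to 1.45) and 1.03 (0.974 to 1.08). None of the 14 was higher in HSCs and lower in CD41low/CD9low HSCs. Only 2.25% of 14144 genes had that pattern, so its absence from a list this short says little.

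Of 11 genes of reticulocyte maturation, 1 was higher and 1 lower in KO in HSCs, against 14.1% and 10.3% of all genes. In CD41low/CD9low HSCs 0 were higher and 2 lower, against 13.5% and 12.0%. These counts too are near the shares over all genes. Tent5c, a poly(A) polymerase, had 1838, 2783, 196 and 383 counts and ratios of 1.87 (1.76 to 1.98) and 1.30 (1.09 to 1.56). Ypel4 was lower in both populations, with 33, 5, 14 and 2 counts and ratios of 0.187 (0.0570 to 0.482) and 0.0952 (0.0105 to 0.415). Isg20, an exonuclease, had 793, 457, 288 and 257 counts. It was between the cutoffs in HSCs, at 0.711 (0.633 to 0.799), and lower in the CD41low/CD9low pair, at 0.595 (0.501 to 0.706). Bnip3l, which drives the removal of mitochondria from reticulocytes, was between the cutoffs at 1.21 (1.17 to 1.24) and 1.42 (1.33 to 1.52). For all 11 genes the median log2 ratio was 0.33 in HSCs, against −0.089 in the CD41low/CD9low pair.

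Markers of other marrow cells moved with the globins in the CD41low/CD9low pair. All 13 neutrophil granule genes were lower in KO there, against 12.0% of all genes. Their ratios ran from 0.0892 for Ctsg (cathepsin G) to 0.555 for Prtn3 (proteinase 3). Their summed level was 468, 558, 1225 and 308 CPM in HSC WT, HSC KO, CD41low/CD9low WT and CD41low/CD9low KO, the same order of libraries as for the globins, and none was at 0 in any library. In HSCs 1 of 13 was higher, Mpo (myeloperoxidase), at 1.503 (1.46 to 1.55), and 0 were lower, against 14.1% and 10.3% of all genes. Mpo was no longer past the cutoff when the pair was scaled by TMM or by total counts. S100a9, a calcium-binding protein of neutrophils, had 2063, 1853, 4626 and 1810 counts. Of 10 monocyte and macrophage genes, KO was below the cutoff for 8 in the CD41low/CD9low pair, against 12.0% of all genes. In HSCs 3 were higher, Ccr2, F13a1 and Ly6c2, and 2 lower, against 14.1% and 10.3%. The full list of 11 genes, of which 1 had too few counts for a ratio, summed to 46.0, 68.7, 66.0 and 15.9 CPM. F13a1, coagulation factor XIII A chain, had ratios of 1.86 (1.69 to 2.06) and 0.0509 (0.0238 to 0.0966).

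The B cell, platelet and HSC markers had other orders. The 11 B cell genes summed to 89.9, 45.6, 32.0 and 29.2 CPM, with 8 and 6 of them at 0 in the CD41low/CD9low WT and KO libraries. The 10 T and NK cell genes summed to 87.0, 88.5, 51.6 and 73.5 CPM. Of 4 genes listed as low in the HSC gate, 0 were higher and 0 lower in HSCs, against 14.1% and 10.3%. In the CD41low/CD9low pair 1 was higher and 2 were lower, among them Flt3 at 0.398 (0.369 to 0.430), against 13.5% and 12.0%. The 11 megakaryocyte and platelet genes summed to 1725, 2506, 545 and 661 CPM. Of them, 5 in HSCs and 4 in the CD41low/CD9low pair were higher in KO, against 14.1% and 13.5% of all genes. In either pair 0 were lower, against 10.3% and 12.0%. The part of red cell, neutrophil or monocyte material in the globin values was not tested.

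**Figure D5:**
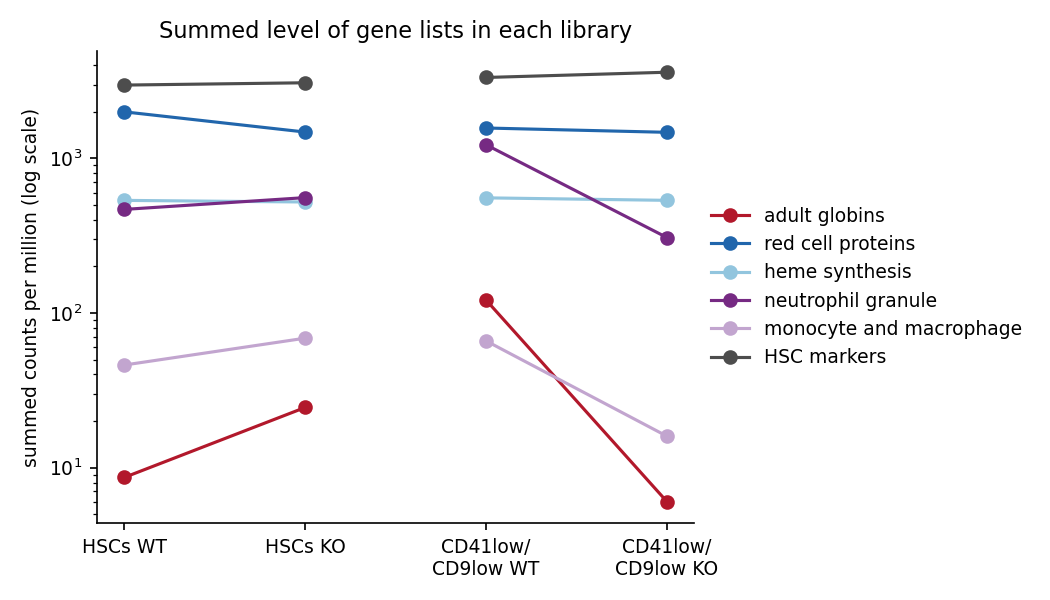
Summed level of gene groups in each library, in CPM on a log axis, with lines joining the WT and KO libraries of a population. The adult globins and the neutrophil granule genes are highest in CD41low/CD9low WT and lowest in CD41low/CD9low KO, whereas heme synthesis stays between 522 and 556 CPM.

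The genes whose profile over the 4 libraries was most like that of the summed globins were ranked by Euclidean distance of centred log2(CPM + 1) values, over 13305 genes whose median distance was 3.25. Slc4a1 came first, at 0.665. It was followed by Fcnb, a ficolin of myeloid cells, at 1.07, and by Ngp and Ltf, neutrophil granule proteins, at 1.48 and 1.56. Insyn1 (1.60), Rhou (1.61), Gm13328 (1.62) and Mcemp1 (1.64) completed the first 8. Fcnb had 63, 79, 125 and 4 counts, Ngp had 627, 671, 966 and 270, and Ltf had 882, 931, 1424 and 425. Measured in the same way against the sum to which they contribute, the members lay at 0.657 (Hba-a1), 1.15 (Hbb-bs), 1.76 (Hbb-bt) and 2.09 (Hba-a2). On this scale Slc4a1, Fcnb, Ngp and Ltf were closer to the sum than Hbb-bt and Hba-a2 were. The added 1 shrinks differences among levels below 1 CPM, and the lowest levels were 0.0788 CPM for Hba-a2 and 0.209 for Slc4a1 and Fcnb. The ranking depends in part on that choice.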

How the data were processed

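The authors sequenced TruSeq Stranded mRNA libraries as paired ends and deposited raw counts per Ensembl gene, made with TopHat2 2.0.10 on mm10, SAMtools and HTSeq. The versions of HTSeq and SAMtools, the strand setting, the annotation release and the read length are not given in the sources used here. The deposited counts are whole numbers, with 38293 genes listed in the HSC files and 41214 in the CD41low/CD9low files, and the HTSeq summary rows (not unique, ambiguous, no feature) were left out of totals. Reads without a feature came to 60.1 to 105.3 per 100 counted reads and ambiguous reads to 0.44 to 0.84.

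From these counts CPM, median-of-ratios size factors of each pair (KO/WT 0.810 in HSCs and 1.50 in CD41low/CD9low HSCs) and KO/WT ratios were computed in Python 3.11.15 (numpy 2.4.6, pandas 2.3.3, scipy 1.17.1). The cutoffs of 1.5 and 0.6 follow the study. With 1 library per group no test was made. The calculation was tested on simulated data. TMM factors came from edgeR 4.0.16 in R 4.3.3 as an alternative. Other alternatives were total counts, totals without globins, factors over all 4 libraries, a pseudocount of 1, count minimums of 0 and 50, cutoffs of 2 and 0.5, and sums over fewer globins.

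Members and gene lists were chosen with earlier results of these data known. Named genes were the members, other globins, a fixed set of red cell genes (Alas2, Klf1, Gata1, Bcl11a, Slc4a1, Car1 and Hemgn), from each list the 3 highest counts and the extreme ratios of each population among genes with at least 50 counts in a library of the pair, and the 8 most alike profiles. Ermap, Kel, Sptb, Ank1, Trim10, Ypel4, Tmod1 and Ly6a fall outside this rule and were named after their values were seen. Some genes are not reported here and were left out of their lists. Of the listed genes, 3 had no matched row and are not analysed here. Gene names came from the reference tables, and 2113 identifiers had no symbol.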

Additional observations from a re-analysis of the deposited data

Results flagged for a closer look

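The following had a KO/WT ratio above 1.5 in one population and below 0.6 in the other. In every case the difference between the populations was not tested, since each ratio compares 1 library with 1 library. The adult globins were chosen for this pattern, which Hbb-bt did not have. The ratios in HSCs and in CD41low/CD9low HSCs were 3.21 and 0.0216 for Hba-a1, 22.8 and 0.156 for Hba-a2, 7.68 and 0.0119 for Hbb-bs, and 2.87 and 0.0497 for the sum of all 4 globins. Of the red cell genes, Slc4a1 had 1.745 and 0.0108, in the direction of the globins, whereas Rhag had 0.344 and 1.60 and Tmod1 had 0.354 and 1.63.

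Among markers of other cells, the ratios were 2.35 and 0.338 for Ccr2, a chemokine receptor of monocytes, 1.86 and 0.0509 for F13a1, 1.53 and 0.0685 for Ly6c2, the monocyte Ly6C antigen, 1.55 and 0.0213 for Fcnb, and 1.503 and 0.170 for Mpo. Mpo fell below the upper cutoff in HSCs under TMM or total-count scaling, and Mpo, Ly6c2, Fcnb, Slc4a1 and F13a1 were under the stricter cutoff of 2 there. Jchain, the joining chain of antibodies, went the other way, at 0.411 in HSCs. Its CD41low/CD9low ratio was 2.22 with the 0 counts in WT set at the floor of 3 counts, against 10 in KO. The lower limit of that ratio's interval was 1.49, under the cutoff of 1.5.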

How the results depend on the processing

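The direction of the summed globin ratio was the same in each population under every alternative tried. In HSCs the log2 ratio of 1.52 became 2.29 with the alpha genes alone and 2.77 without Hbb-bt. In CD41low/CD9low HSCs the log2 ratio of −4.33 became −5.90 without Hbb-bt. The sums without Hbb-bt were chosen after seeing the data. Counts of genes past the cutoffs in HSCs, 2248 higher and 1639 lower, became 4354 and 2649 with no count minimum and 1431 and 792 with a minimum of 50, and 1187 were higher with cutoffs of 2 and 0.5. In CD41low/CD9low HSCs, 1998 higher and 1788 lower became 982 and 702 with a minimum of 50, and the higher genes became 3121 with no minimum and 1264 with the stricter cutoffs. Of 136 values for single genes and lists under the alternatives, 127 stayed within their counting interval, or within 1.5 times for counts. The other 9 were counts of list genes. Among them, the neutrophil genes higher in HSCs went from 1 to 0 under TMM, total counts and the stricter cutoffs. The red cell genes higher in HSCs went from 1 to 0 under the stricter cutoffs. No single-gene ratio changed direction, which says little because the alternative scalings were close to the main one. Counts of genes have no direction to change. No paired analysis was possible because each group has 1 library, and for the same reason no library could be left out. The CD41low/CD9low libraries are the shallower, and Hba-a1 and Hba-a2 rest on 5 and 7 counts in the KO library there and Hba-a2 on 4 in HSC WT. Genotype and library preparation cannot be told apart, and neither can population, depth and the list of counted genes.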
